A study of Mus musculus with 80 samples.

Results

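Oxidative phosphorylation is carried out by 5 multi-subunit complexes of the inner mitochondrial membrane, and the genes that encode their subunits were followed here across juvenile bone. The set was formed from gene symbols alone: every gene of the count table whose symbol starts with Nduf, Sdh, Uqcr, Cox4, Cox5, Cox6, Cox7, Cox8, Atp5 or mt-, except Cox6a2, pseudogenes, and mitochondrial transfer and ribosomal RNA genes. It held 101 of the 14688 genes in the table, of which 94 are encoded in the nucleus and 7 in mitochondrial DNA (mt-Nd1, mt-Nd2, mt-Nd4, mt-Nd5, mt-Nd6, mt-Cytb and mt-Co1). The rest of the 13 mitochondrial protein genes of the annotation had no row under such a symbol in the count table. Members were sorted by complex, which for some differs from their name. Complex I had 37 nuclear and 5 mitochondrial members, complex II 4 nuclear members, complex III 8 and 1, and complex IV 16 and 1. Complex V (the ATP synthase) had 16 nuclear members, and the rest were 11 assembly factors and 2 others. Ndufa4 and Ndufa4l2 were placed in complex IV, and Cox7a2l and Atp5s were the 2 others.

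All libraries came from female C57BL/6J mice at postnatal day 21, and each was made from one tissue of one mouse per the labels by a bulk form of MARS-seq, a method that counts tags from the 3′ ends of polyadenylated RNA. The mice were MMPdKO (constitutive deletion of both MMP2 and MMP9, MMP2-/-MMP9-/-), MMP9-/-, MMP2-/- or WT; MMP2 and MMP9 are the secreted gelatinases that cut denatured collagen in bone matrix. The lines were 1 knockout line for each gene, and the double knockout was bred from double heterozygotes. Growth plate was cut from cleaned tibiae and gave 7 MMPdKO, 7 MMP9-/-, 6 MMP2-/- and 7 WT libraries. Cortical bone was the femoral shaft, freed of muscle, tendon and ligament and with the marrow washed out but with periosteum and endosteum in place, and gave 6, 7, 5 and 7 libraries of the same genotypes. Calvaria was a frontal bone with its periosteum and suture mesenchyme, and gave 7 libraries of each genotype. The 80 libraries came from 33 mice, and 17 of these mice gave all 3 tissues.

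The library totals ran between 114408 and 1921698 counts, with a median of 651164.5. Levels are given as CPM, counts scaled by the library total after TMM normalization, which adjusts the totals to each other. The targeted genes matched the labels. Mmp2 stood at 4.15 to 48.3 CPM in the MMPdKO and MMP2-/- libraries, against 219 to 944 CPM in MMP9-/- and WT libraries. Mmp9 in MMPdKO and MMP9-/- libraries did not reach the lowest WT library of its tissue. Col2a1, the cartilage collagen, stood at 958 to 47557 CPM in growth plate, 230 to 6651 CPM in cortical bone and 97.1 to 854 CPM in calvaria. Thus 5 growth plate libraries (WT replicates 2, 3 and 7, MMP2-/- replicate 5 and MMP9-/- replicate 7) did not exceed the highest cortical library, WT replicate 5. Values without these libraries are given for the Cox4i2, Ndufa4l2 and Cox6b2 results, the MMP9-/- calls in growth plate over calvaria, the marker lists read beside them and the tests between genotypes.

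Complexes I to IV pass electrons to oxygen, complexes I, III and IV pump protons, and complex V uses the proton gradient to make ATP. Most subunits are made by every cell, but some subunits of complex IV (cytochrome c oxidase) exist as alternative isoforms: Cox7a1 and Cox8b are the forms of heart and skeletal muscle in the mouse, Cox4i2 is known from lung and oxygen-sensing cells, and Cox6b2 from testis. Chondrocytes of the growth plate live without blood vessels at low oxygen and depend largely on glycolysis, and Ndufa4l2 is a known target of the hypoxia-inducible factor HIF-1 that resembles the complex IV subunit Ndufa4.

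As a whole the set took a narrow share of the counts. Its members summed to between 1.82% and 2.85% of the counts of a library, with a median of 2.19% over the 80 libraries. The medians were 2.10% in growth plate, 2.18% in cortical bone and 2.36% in calvaria, and the ranges of the 3 tissues overlapped. The 7 mitochondrial members took 0.0257% to 0.205%, with a median of 0.0502%. In growth plate mt-Co1 had a median of 6.71 CPM, against 1077 CPM for Cox4i1 of the same complex. How fully RNA of the mitochondrial members was captured, mapped and counted was not tested, so their shares are not read as RNA abundance. The library with 0.205% was cortical MMP9-/- replicate 1 (95% Wilson interval 0.18% to 0.232%, counting error only), which also had the lowest total, 114408 counts. Among the single members, the highest median over the 12 groups was less than 1.5 times the lowest in 59 of 101, and at least 4 times the lowest in 8. These 8 included Cox4i2, Ndufa4l2, Cox7a1, Cox8b and Cox6b2. The other 3 (Uqcrb, mt-Nd6 and Ndufaf1, named after their values were seen) had medians of 2.32, 3.02 and 4.82 CPM over all libraries.

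**Figure D1:**
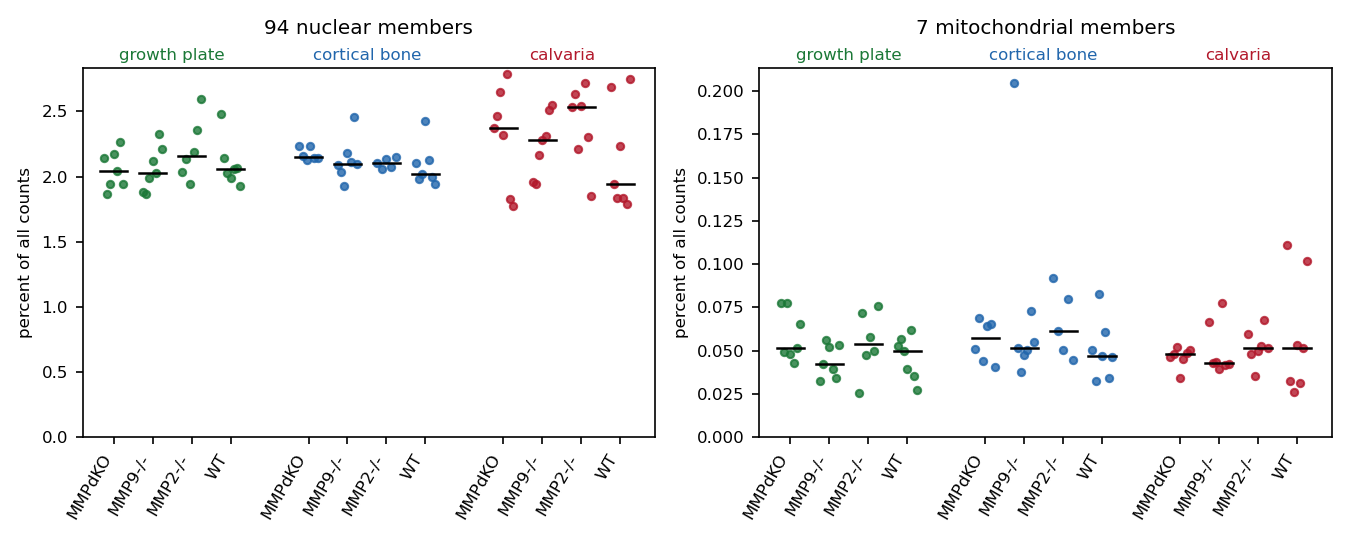
Summed share of the 94 nuclear members (left) and the 7 mitochondrial members (right) in percent of all counts, for each library (points) with the median of its group (bars), by tissue and genotype. The shares of the 3 tissues overlap, and 1 cortical MMP9-/- library stands apart at 0.205% for the mitochondrial members.

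The first question was how the members differ between the 3 bones. In growth plate over cortical bone, adjusted p under 0.05 (edgeR quasi-likelihood test, Benjamini-Hochberg adjustment over all genes tested) was reached by 5 of 96 members tested in MMPdKO, 2 of 95 in MMP9-/-, 2 of 95 in MMP2-/- and 3 of 97 in WT mice. The shares of all genes tested that passed in the same comparisons were 11.6%, 11.8%, 1.67% and 3.03%. In growth plate over calvaria, 21 of 96 members passed in MMPdKO (all genes 28.8%), 15 of 95 in MMP9-/- (28.2%), 1 of 95 in MMP2-/- (3.84%) and 1 of 97 in WT mice (4.86%). In cortical bone over calvaria, 2 of 96 passed in MMPdKO (4.87%), 6 of 95 in MMP9-/- (7.44%), 2 of 95 in MMP2-/- (2.78%) and 2 of 97 in WT mice (6.35%). The members' shares were thus below that of all genes in most comparisons, near it in WT growth plate over cortical bone, and above it in the MMP2-/- growth plate over cortical bone with 2 genes. By DESeq2, an alternative test, 10 of 95 members passed in MMP9-/- cortical bone over calvaria, above the 8.19% of all genes. In MMP2-/- growth plate over cortical bone 2 of 95 passed by DESeq2, below the 2.95% of all genes. With 1 library left out, the counts in growth plate over calvaria ran over 15 (without calvarial replicate 5) to 30 (without calvarial replicate 6) in MMPdKO mice and over 10 (without growth plate replicate 2) to 17 in MMP9-/- mice. In MMP9-/- cortical bone over calvaria the count was 14 without cortical replicate 6, 3 without cortical replicate 2 and 2 without cortical replicate 3 or 5. In MMPdKO growth plate over cortical bone it was 3 without any 1 of growth plate replicates 2, 3, 4, 6 and 7 or cortical replicates 3 and 4, and 2 without cortical replicate 2. In WT cortical bone over calvaria it was 5 without calvarial replicate 3, and 0 or 1 in 11 of the other fits. The shares of all genes in the fits that left out 1 library are not given here. Whether the members moved more than all genes in these fits is therefore not read from their counts. The 3 comparisons of 1 genotype share libraries, so their values are set side by side and not counted as separate evidence. In bulk tissue, fewer cells of a type and less RNA per cell cannot be told apart.

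The clearest differences lay in Cox4i2 and Ndufa4l2, both higher in growth plate. Cox4i2 (chromosome 2, 152754173 to 152765037, plus strand, GRCm38) encodes the alternative isoform of the largest nuclear subunit of complex IV. In growth plate its lowest, median and highest library had 31.2, 75.8 and 123 CPM in MMPdKO, 15.5, 58.6 and 85.7 CPM in MMP9-/-, 10.8, 42.6 and 85.1 CPM in MMP2-/- and 12.8, 51.0 and 61.3 CPM in WT mice. In cortical bone the same 3 values were 6.82, 10 and 25.6 CPM in MMPdKO, 5.19, 16.3 and 23.1 CPM in MMP9-/- and 3.13, 8.09 and 30.2 CPM in WT mice, and the 5 MMP2-/- libraries had 9.33, 10.7, 2.53, 15.2 and 5.96 CPM. In calvaria they were 3.75, 6.21 and 6.82 CPM in MMPdKO, 1.53, 5.33 and 15.7 CPM in MMP9-/-, 5.08, 8.53 and 18.7 CPM in MMP2-/- and 0, 8.68 and 16.2 CPM in WT mice. The growth plate median was the highest of the 3 tissues in each genotype, and in MMPdKO the growth plate libraries overlapped with neither cortical bone nor calvaria (as for 3.36% and 9.03% of all genes tested). In the other genotypes, the lowest growth plate libraries lay inside the range of cortical bone.

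The log2 fold change of Cox4i2 in growth plate over cortical bone was 2.59 in MMPdKO (SE 0.33, adjusted p = 4.49e-06), 2.10 in MMP9-/- (SE 0.41, adjusted p = 0.000926), 2.37 in MMP2-/- (SE 0.54, adjusted p = 0.0247) and 2.15 in WT mice (SE 0.45, adjusted p = 0.00675). Over calvaria it was 3.62 in MMPdKO (SE 0.33, adjusted p = 7.55e-09), 2.99 in MMP9-/- (SE 0.44, adjusted p = 1.26e-05), 1.91 in MMP2-/- (SE 0.45, adjusted p = 0.0129) and 2.04 in WT mice (SE 0.44, adjusted p = 0.00447). Thus Cox4i2 passed in each of the 8 comparisons. With the mouse as a block, the adjusted p over cortical bone was 0.0883 in WT mice. In MMP2-/- mice the call over cortical bone was lost without growth plate replicate 3 (0.0652) or cortical replicate 1 (0.0584), 3 (0.107) or 5 (0.0577), and in the fit of these groups alone (0.0964), and the call over calvaria without growth plate replicate 3 (0.0661) and with the mean log2 CPM of a skeletal muscle list in each library as a covariate (0.0502). Without the low Col2a1 libraries the log2 fold changes over cortical bone were 2.25 in MMP9-/-, 2.59 in MMP2-/- and 2.63 in WT mice, and over calvaria 3.13, 2.09 and 2.47.

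Ndufa4l2 (chromosome 10, 127514967 to 127517154, plus strand) followed the same order in the long bones but not over calvaria. In growth plate the lowest, median and highest library had 63.6, 166 and 209 CPM in MMPdKO, 55.2, 114 and 149 CPM in MMP9-/-, 36.4, 77.7 and 203 CPM in MMP2-/- and 25.7, 94.5 and 113 CPM in WT mice. In cortical bone the values were 18.5, 27.0 and 49.2 CPM in MMPdKO, 11.4, 28.8 and 46.1 CPM in MMP9-/- and 8.34, 22.5 and 60.3 CPM in WT mice, with 17.3, 24.0, 8.42, 53.2 and 33.8 CPM in the MMP2-/- libraries. In calvaria they were 30.3, 40.2 and 62.1 CPM in MMPdKO, 33.1, 50.1 and 80.0 CPM in MMP9-/-, 32.7, 71.0 and 87.0 CPM in MMP2-/- and 18.2, 58.1 and 85.7 CPM in WT mice. Calvaria therefore lay between the long bone tissues by its medians, and overlapped with growth plate in every genotype but MMPdKO. Over cortical bone the log2 fold change in growth plate was 2.30 in MMPdKO (SE 0.28, adjusted p = 1.86e-06), 2.13 in MMP9-/- (SE 0.28, adjusted p = 4.54e-06), 2.09 in MMP2-/- (SE 0.48, adjusted p = 0.0271) and 1.70 in WT mice (SE 0.38, adjusted p = 0.0122), without overlap in MMPdKO and MMP9-/-. Of all genes tested in MMP9-/- mice, 2.36% had no overlap in this comparison. Over calvaria, growth plate passed only in MMPdKO (1.84, SE 0.24, adjusted p = 3.39e-06) and MMP9-/- mice (0.98, SE 0.25, adjusted p = 0.00346). Cortical bone was lower than calvaria in MMP9-/- mice (log2 fold change -1.15, SE 0.30, adjusted p = 0.0175, and -2.01 with the muscle covariate). With the mouse as a block, the WT call over cortical bone was lost (adjusted p = 0.169), and the MMP2-/- call was lost without growth plate replicate 3 (0.0652) or 6 (0.0589) or cortical replicate 1 (0.0817), 2 (0.0592) or 3 (0.107), in the fit of these groups alone (0.105) and with the muscle covariate (0.0513). Without the low Col2a1 libraries, growth plate over cortical bone was 2.25 in MMP9-/-, 2.30 in MMP2-/- and 2.14 in WT mice. Shmt2 lies on the opposite strand and overlaps Ndufa4l2 by 32 bases, and the strand setting of the counting is not given in the sources used here.

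**Figure D2:**
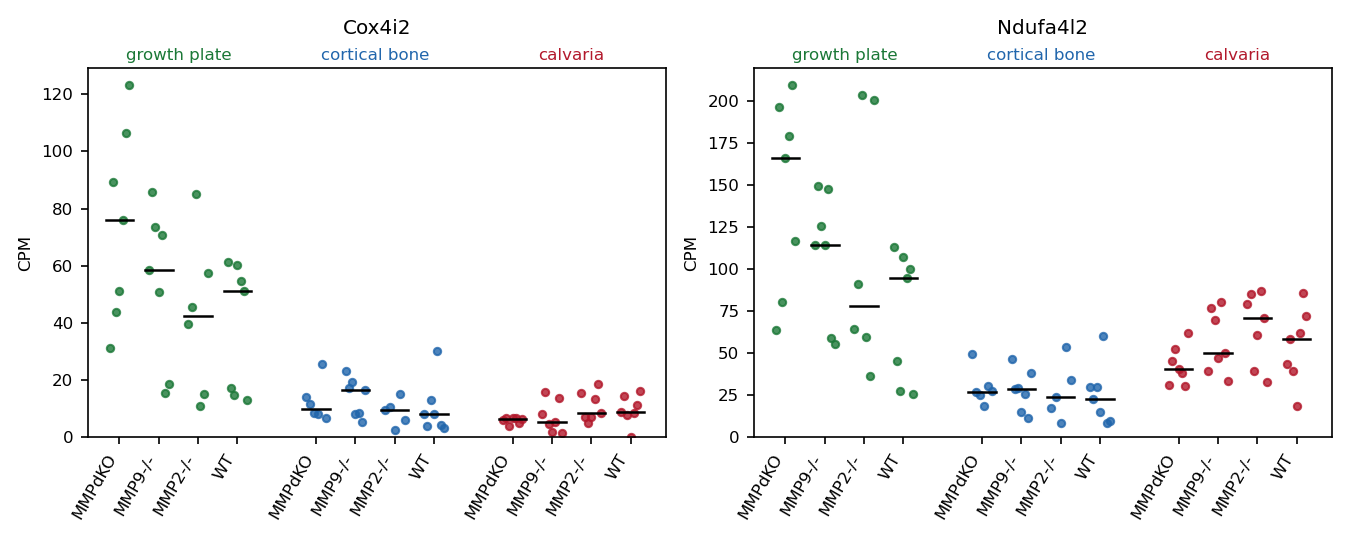
CPM of Cox4i2 (left) and Ndufa4l2 (right) in each library (points) with the group median (bars), by tissue and genotype. MMPdKO growth plate libraries lie above all MMPdKO libraries of cortical bone and calvaria for both genes, whereas WT growth plate libraries spread down into the range of the other bones.

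The common partners of these isoforms did not pass in any of the 12 tissue comparisons. Cox4i1, the ubiquitous counterpart of Cox4i2, had log2 fold changes between -0.27 and 0.21, and Ndufa4 had values between -0.97 and 0.93. Cox6b1 ran between -0.37 and 0.20, Cox8a between -0.10 and 0.23, and Cox7a2 between -0.40 and 1.43. Ndufa4 and Cox7a2 have near-identical pseudogene copies that can share their reads, so their values are uncertain. Markers of chondrocytes moved with the growth plate results. Of a list of 18 chondrocyte genes, 17, 18, 14 and 14 passed as higher over cortical bone in MMPdKO, MMP9-/-, MMP2-/- and WT mice, and the summed level was 7345 to 88134 CPM in growth plate, 1988 to 15871 CPM in cortical bone and 1299 to 4604 CPM in calvaria. Of the glycolysis and hypoxia response list, 8 of 21, 9 of 22, 2 of 22 and 2 of 22 were higher in growth plate over cortical bone in the same order of genotypes, and none were lower. Slc2a1, the glucose transporter GLUT1, was among them in MMPdKO (1.39, SE 0.25, adjusted p = 0.000565) and MMP9-/- mice (1.48, SE 0.25, adjusted p = 0.000152). Of the smooth muscle and pericyte list, whose cells are known to make Cox4i2 in lung vessels, 1 of 10, 1 of 10, 1 of 9 and 1 of 8 genes were higher in growth plate over cortical bone, Cspg4 in each genotype (2.01 in MMPdKO, 2.05 in MMP9-/-, 1.53 in MMP2-/- and 1.70 in WT mice), and Kcnj8 was lower in MMPdKO mice (-1.31, adjusted p = 0.0183). The neutrophil list was lower in 16 of 17, 15 of 18, 2 of 19 and 10 of 17 genes, the cell division list in 14, 10, 0 and 0 of 16, and the red blood cell precursor list in 6, 0, 0 and 0 of 15, with none higher. Without the low Col2a1 libraries, 18, 16 and 17 of the chondrocyte genes and 10, 2 and 7 of 22 glycolysis and hypoxia response genes were higher in MMP9-/-, MMP2-/- and WT mice, and 14 of 18, 0 of 19 and 10 of 17 neutrophil and 6, 0 and 0 of 16 cell division genes were lower. The part of chondrocytes, vessel wall cells, blood cells and dividing cells in the Cox4i2 and Ndufa4l2 differences was not tested.

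The second group of members varied together with skeletal muscle RNA. Cox7a1 (chromosome 7, 30184144 to 30186078, plus strand) and Cox8b (chromosome 7, 140898945 to 140900446, minus strand) encode the heart and muscle isoforms of small complex IV subunits, and were lower in cortical bone than in calvaria. Cox7a1 had 4.99, 39.6 and 85.3 CPM in the lowest, median and highest cortical MMPdKO library, against 40.4, 234 and 412 CPM in MMPdKO calvaria. It had 6.52, 17.3 and 162 CPM in MMP9-/- cortical bone, against 109, 159 and 295 CPM in MMP9-/- calvaria. The 5 MMP2-/- cortical libraries had 50.6, 107, 51.4, 40.6 and 17.9 CPM, against 52.6, 269 and 328 CPM in MMP2-/- calvaria, and the WT values were 0.98, 28.4 and 151 CPM in cortical bone and 29.7, 82.0 and 464 CPM in calvaria. The groups overlapped in each genotype, and within cortical bone the libraries differed from each other more than the tissue medians did. The log2 fold change in cortical bone over calvaria was -2.51 in MMPdKO (SE 0.43, adjusted p = 0.000591), -2.14 in MMP9-/- (SE 0.51, adjusted p = 0.00894), -2.11 in MMP2-/- (SE 0.48, adjusted p = 0.0157) and -2.33 in WT mice (SE 0.69, adjusted p = 0.0419). The WT call was lost in 9 of 14 fits that left out 1 library (adjusted p over all 14 fits between 0.00773 and 0.119) and with the mouse as a block (0.256). The MMP2-/- call was lost without cortical replicate 5 (0.0581) and with the block (0.0688). Without cortical MMP9-/- replicate 6, the library with 162 CPM, the MMP9-/- value was -3.57.

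Cox8b gave the same picture. It had 1.66, 42.0 and 69.9 CPM in MMPdKO cortical bone, against 15.5, 185 and 318 CPM in MMPdKO calvaria, and 6.47, 10.9 and 150 CPM in MMP9-/- cortical bone, against 80.0, 119 and 218 CPM in MMP9-/- calvaria. The MMP2-/- cortical libraries had 54.6, 107, 46.3, 35.5 and 19.9 CPM, against 56.8, 220 and 307 CPM in MMP2-/- calvaria. Again most cortical libraries were low, and a single high cortical library closed the gap in MMP9-/- mice. The log2 fold change in cortical bone over calvaria was -2.20 in MMPdKO (SE 0.53, adjusted p = 0.0132), -1.91 in MMP9-/- (SE 0.51, adjusted p = 0.0198) and -1.99 in MMP2-/- mice (SE 0.47, adjusted p = 0.0184), and Cox8b did not pass in WT mice. The MMP9-/- call was lost without cortical replicate 2 (0.0524), 3 (0.0506) or 5 (0.0543), and its value was -3.49 without replicate 6. The MMP2-/- call was lost without cortical replicate 1 (0.051), 3 (0.0628) or 5 (0.0696) and with the mouse as a block (0.0778). In growth plate over calvaria Cox7a1 was lower in MMPdKO (-1.61, SE 0.38, adjusted p = 0.00225) and MMP9-/- mice (-1.24, SE 0.46, adjusted p = 0.0432), and Cox8b in MMPdKO mice (-1.26, SE 0.47, adjusted p = 0.0428). The last 2 calls were lost in 9 and 10 of 14 fits that left out 1 library, with adjusted p over the fits of up to 0.0951 and 0.113, and DESeq2 gave adjusted p of 0.118 and 0.132.

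The muscle list moved with both genes. Its 38 genes summed to 661 to 31372 CPM in cortical bone (median 7709), 2551 to 79183 CPM in growth plate (median 17357) and 4891 to 68747 CPM in calvaria (median 26035). In cortical bone over calvaria its median log2 fold change was -1.83 in MMPdKO, -1.68 in MMP9-/-, -1.52 in MMP2-/- and -1.54 in WT mice, and 25 of 35, 25 of 36, 12 of 36 and 8 of 36 genes passed as lower and none as higher. With the muscle covariate, the log2 fold change of Cox7a1 in cortical bone over calvaria was -0.57 in MMPdKO (adjusted p = 0.292), -0.79 in MMP9-/- (0.184), -0.59 in MMP2-/- (0.606) and -0.82 in WT mice (0.125). That of Cox8b was 0.29 in MMPdKO (0.978), -0.61 in MMP9-/- (0.353) and -0.54 in MMP2-/- mice (0.636). Neither gene passed in any of these fits. The muscle list itself differed between these tissues, so the covariate can take up a tissue difference of any origin. The part of muscle RNA in the Cox7a1 and Cox8b differences was not tested. The cortical libraries with the highest Cox7a1 and Cox8b, WT replicate 4 and MMP9-/- replicate 6, had 2.17% (95% Wilson interval 2.13% to 2.21%) and 3.28% (3.25% to 3.32%) of their counts in the muscle list, against a cortical median of 0.788%.

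**Figure D3:**
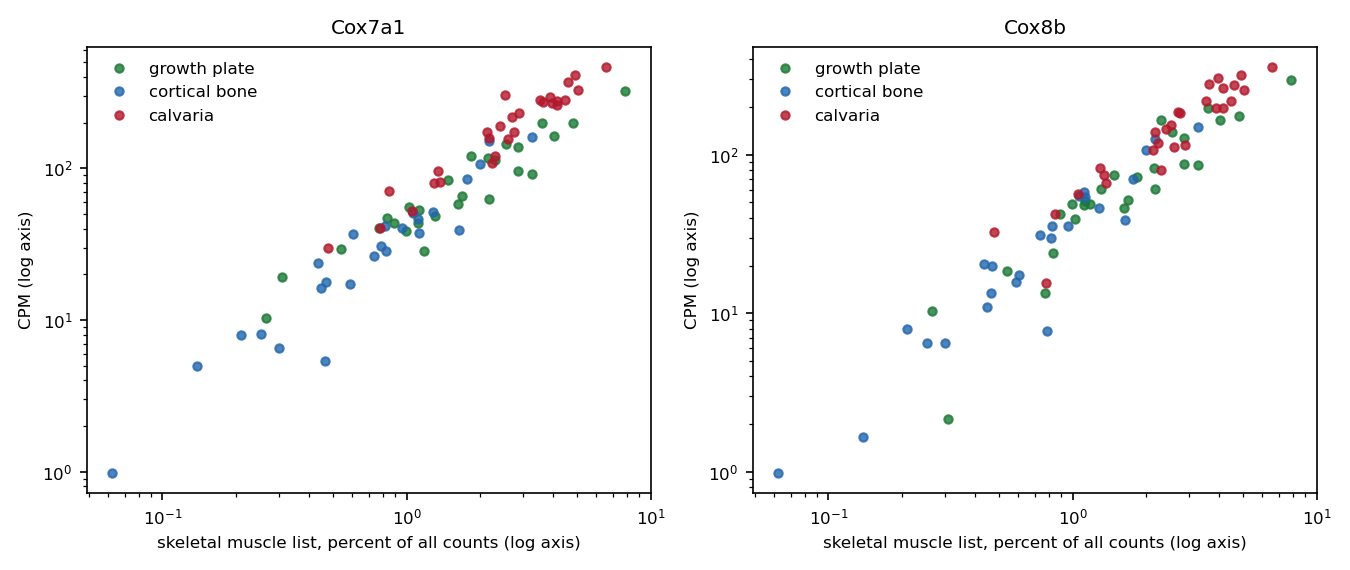
CPM of Cox7a1 (left) and Cox8b (right) against the share of counts in the skeletal muscle list, both on log axes, 1 point for each of the 80 libraries, coloured by tissue. The libraries of the 3 tissues lie along the same band, with cortical libraries at its lowest values (down to 0.98 CPM for both genes) and calvarial and growth plate libraries at its upper end, where growth plate MMP2-/- replicate 6 has the highest muscle share (7.88%).

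The sequences upstream of Cox7a1 and Cox8b are shown because these 2 members moved with the muscle genes, whose transcription in muscle cells is known to use E-box elements (CANNTG, and CAGCTG as the form favoured by the MyoD family). The 250 bases before each RefSeq gene start are written 5′ to 3′ on the strand of the gene, with every CANNTG in capitals. The Cox7a1 window (chr7:30183921-30184170, plus strand, GRCm38.p6) held 1 CANNTG and no CAGCTG, and the Cox8b window (chr7:140900447-140900696, minus strand) held 1 CANNTG, which was a CAGCTG.
Cox7a1: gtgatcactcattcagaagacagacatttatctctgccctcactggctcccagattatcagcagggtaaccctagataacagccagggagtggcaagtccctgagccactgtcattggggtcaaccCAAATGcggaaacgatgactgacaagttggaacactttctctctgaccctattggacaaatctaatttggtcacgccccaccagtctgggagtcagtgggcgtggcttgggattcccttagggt
Cox8b: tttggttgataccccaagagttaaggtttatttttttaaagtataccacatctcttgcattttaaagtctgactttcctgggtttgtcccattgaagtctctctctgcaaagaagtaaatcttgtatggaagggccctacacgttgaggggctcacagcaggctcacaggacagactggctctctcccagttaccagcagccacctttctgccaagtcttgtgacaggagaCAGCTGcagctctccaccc
On either strand, CANNTG was found in 66.2% and CAGCTG, which is 1 form of it, in 13.0% of the 32851 RefSeq windows of the same length, so the match is a description of these letters only. Of the members, 76 of 101 had an entry in the promoter table, and no window is printed for Cox4i2 and Ndufa4l2.

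Growth plate and calvaria differed in more members in MMPdKO and MMP9-/- mice than in MMP2-/- and WT mice, as did all genes. In MMPdKO mice 5 members were higher and 16 lower in growth plate (all genes 14.6% higher and 14.2% lower), and in MMP9-/- mice 4 were higher and 11 lower (14.4% and 13.8%). The members' median log2 fold change was -0.08 in MMPdKO and -0.12 in MMP9-/- mice, against -0.01 and 0.00 for all genes, and 58 of 96 and 66 of 95 members had values below 0. In MMP2-/- and WT mice it was -0.07 and -0.01, against 0.00 and 0.01 for all genes. There 62 of 95 and 52 of 97 members had values below 0, so a lean to lower values was not limited to the genotypes with many calls. Only Cox4i2 passed in MMP2-/- and WT mice. At an unadjusted p under 0.05 there were 5 and 5 members, and the share of all genes at that threshold is not given here. By complex, the lower members in MMPdKO mice were 4 of 37 nuclear subunits of complex I, 1 of 4 of complex II, 2 of 7 of complex III, 4 of 16 of complex IV and 5 of 16 of complex V, and none of the 9 assembly factors tested. The median of the nuclear complex I subunits was -0.19 and that of complex V -0.06, so the calls covered a part of each complex.

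Sdha, the flavoprotein subunit of complex II that oxidises succinate, was the lower member with the smallest adjusted p in MMPdKO mice. It had 74.1, 140 and 157 CPM in the lowest, median and highest MMPdKO growth plate library, against 174, 192 and 247 CPM in MMPdKO calvaria. The groups did not overlap, as for 9.03% of all genes tested, and the log2 fold change of Sdha was -0.64 (SE 0.14, adjusted p = 0.00112). The other subunits of complex II did not pass: Sdhb had -0.11, Sdhc 0.36 and Sdhd -0.37. Atp5a1, the alpha subunit of the catalytic head of ATP synthase, had 341, 414 and 610 CPM in MMPdKO growth plate, against 472, 748 and 1016 CPM in MMPdKO calvaria (log2 fold change -0.69, SE 0.16, adjusted p = 0.00164). Atp5f1, subunit b of its peripheral stalk, had 113, 226 and 328 CPM in MMPdKO growth plate, against 242, 385 and 439 CPM in MMPdKO calvaria (-0.75, SE 0.18, adjusted p = 0.00249). Both groups overlapped at their edges. Of the other ATP synthase subunits, Atp5c1, the gamma subunit of the rotor, had -0.62 (adjusted p = 0.00677) and Atp5g3, a form of subunit c, -0.48 (adjusted p = 0.0166).

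Within complex IV, Cox5a had 178, 253 and 341 CPM in MMPdKO growth plate, against 300, 384 and 629 CPM in MMPdKO calvaria (-0.70, SE 0.17, adjusted p = 0.00318). In MMP9-/- mice it had 206, 278 and 394 CPM in growth plate, against 348, 414 and 548 CPM in calvaria (-0.60, SE 0.13, adjusted p = 0.00123). The ranges overlapped little in both genotypes. Uqcrfs1, the Rieske iron-sulphur protein of complex III, had -0.67 (adjusted p = 0.00437) and the complex I subunit Ndufb11 -0.51 (adjusted p = 0.0111) in MMPdKO mice. The remaining lower members of MMPdKO mice besides Cox6b2, Cox7a1 and Cox8b were Atp5o, Ndufb8, Ndufv2, Uqcrc2 and Ndufa12, named after their values were seen. Each of these 5 calls was lost in 3 to 9 of 14 fits that left out 1 library (adjusted p of up to 0.115). In MMP9-/- mice the lower members with the smallest adjusted p after Cox5a were Ndufs7, a complex I subunit that holds an iron-sulphur cluster (-0.48, adjusted p = 0.00343), and Cox6b2. Cox5b (-0.42, adjusted p = 0.00928), Ndufab1 (-0.39, adjusted p = 0.0134), Ndufv2 (-0.42, adjusted p = 0.0183) and Ndufb9 (-0.37, adjusted p = 0.026) followed. The Ndufb9 call was lost in 5 of 14 fits that left out 1 library (adjusted p of up to 0.0653). Atp5a1 (-0.38, adjusted p = 0.0305), Atp5b (-0.32, adjusted p = 0.0344) and Atp5f1 (-0.41, adjusted p = 0.0389) passed with smaller changes, and were lost in 7, 4 and 9 of 14 fits that left out 1 library (adjusted p of up to 0.0735, 0.101 and 0.0907).

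The higher members besides Cox4i2 and Ndufa4l2 differed between the genotypes. In MMPdKO mice mt-Nd1, a mitochondrially encoded core subunit of complex I (mitochondrial DNA, 2751 to 3707), had 48.9, 111 and 149 CPM in growth plate, against 27.7, 46.3 and 74.5 CPM in calvaria (1.25, SE 0.22, adjusted p = 0.000112). All but 1 of the growth plate libraries lay above the whole calvarial range. Another such subunit, mt-Nd5 (11742 to 13565), had 17.1, 24.6 and 37.4 CPM in MMPdKO growth plate, against 12.3, 15.01 and 24.8 CPM in MMPdKO calvaria (0.73, SE 0.24, adjusted p = 0.0228). Its call was lost without growth plate replicate 1 (0.0505) or 2 (0.0614) or calvarial replicate 4 (0.0594). The other mitochondrial members tested there did not pass: mt-Nd2 had 0.76 (adjusted p = 0.0785), mt-Cytb 0.28 (0.397) and mt-Nd4 0.05 (0.882), and mt-Nd6 and mt-Co1 were below the count minimum. The mitochondrially encoded members thus had unequal values, and the mt-Nd1 values rest on 22 to 80 counts a library. Cox7b, a small subunit of complex IV, had 20.1, 74.2 and 91.6 CPM in MMPdKO growth plate, against 16.4, 24.8 and 87.5 CPM in MMPdKO calvaria (1.01, SE 0.34, adjusted p = 0.0258), with ranges that overlapped almost entirely. This call was lost without growth plate replicate 4 (0.0545) or calvarial replicate 2 (0.0517), 3 (0.051) or 4 (0.0678). In MMP9-/- mice the higher members were Ndufaf2, an assembly factor of complex I (27.6, 39.9 and 53.9 CPM in growth plate, against 15.5, 22.0 and 34.9 CPM in calvaria), and Atp5g2, a form of subunit c. Their log2 fold changes were 0.72 (SE 0.21, adjusted p = 0.00949) and 0.92 (SE 0.30, adjusted p = 0.0195), and the Atp5g2 call was lost without growth plate replicate 5 (0.051) or calvarial replicate 7 (0.0608).

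**Figure D4:**
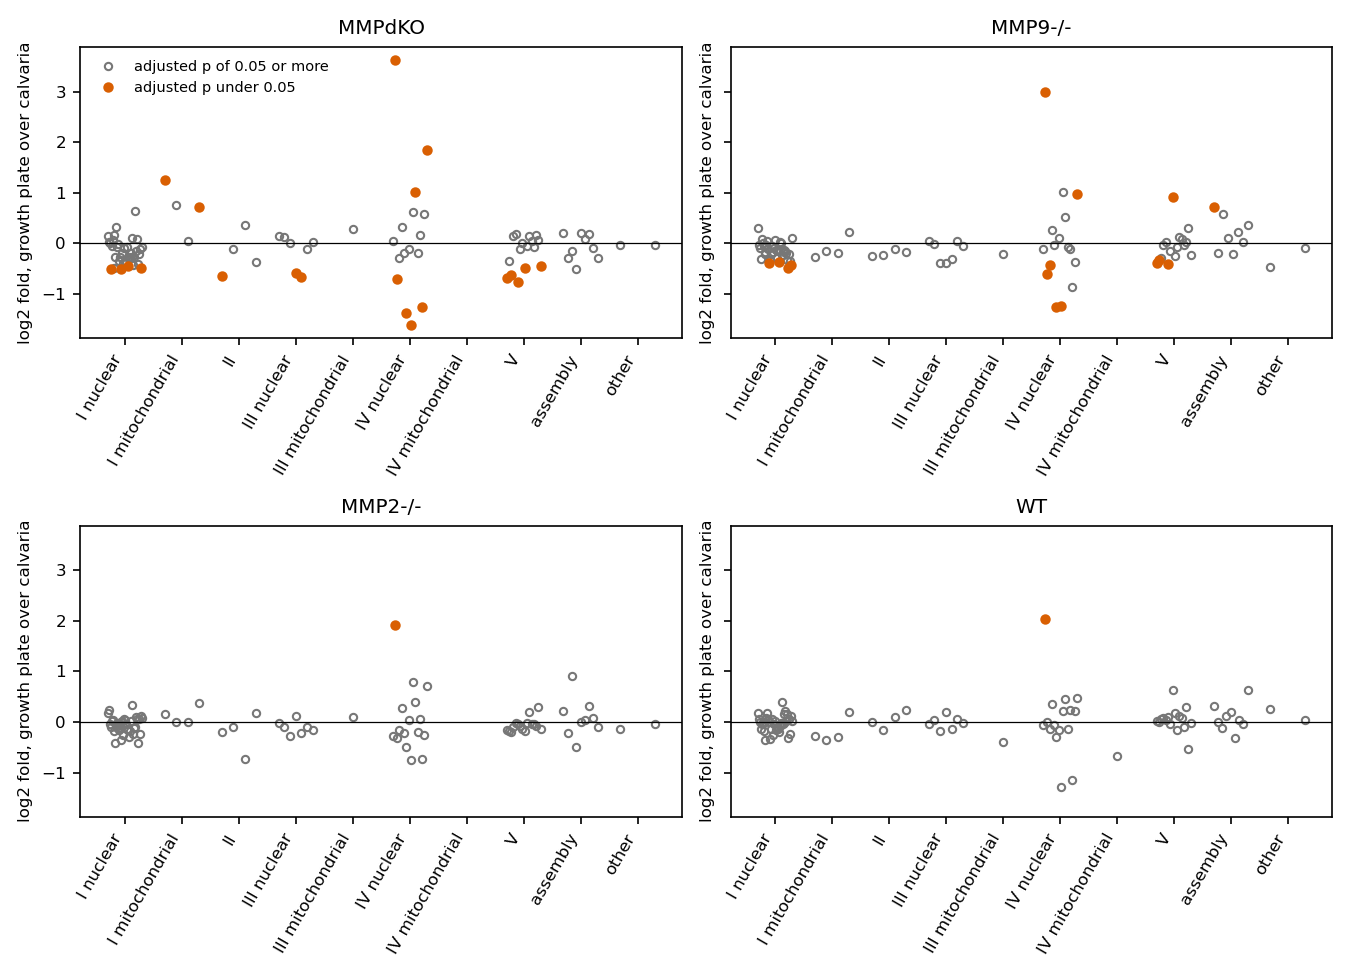
Log2 fold change of each member tested in growth plate over calvaria, by complex and genome of origin, in MMPdKO, MMP9-/-, MMP2-/- and WT mice. Filled points passed adjusted p under 0.05: 21 members in MMPdKO and 15 in MMP9-/-, but only Cox4i2 in MMP2-/- and WT mice.

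Other cell types moved with these calls. In growth plate over calvaria of MMPdKO and MMP9-/- mice, the red blood cell precursor list was lower in 14 and 14 of 15 genes (median log2 fold change -1.47 and -1.27), the neutrophil list in 17 of 17 and 17 of 18 (-1.80 and -1.81), the haemoglobin genes in 4 and 3 of 4 (-1.66 and -1.52) and the cell division list in 15 and 14 of 16 (-1.04 and -0.92). The muscle list was lower in 16 of 35 and 14 of 36 genes. The osteoclast list was higher in 5 of 5 and 5 of 7 genes, and in 5 of 7 genes in WT mice. Its higher genes included Mmp9 (1.71 in MMPdKO and 1.55 in MMP9-/- mice), which is deleted in both genotypes and is not read there as a cell marker. The osteoblast and osteocyte list had 5 and 7 of 14 genes higher and 4 and 3 lower, and the adipocyte list had 1 of 3 lower and 2 of 5 higher. In WT mice none of the red blood cell precursor, neutrophil or cell division genes passed. The part of blood cells and dividing cells in the lower OXPHOS members was not tested. With the muscle covariate, 14 of 96 members passed in MMPdKO (all genes 25.6%) and 5 of 95 in MMP9-/- mice (all genes 18%). Sdha (-0.63, adjusted p = 0.00403), Atp5a1 (-0.60, adjusted p = 0.0105) and mt-Nd1 (1.12, adjusted p = 0.000845) passed in that fit in MMPdKO mice, and Cox5a (-0.54, adjusted p = 0.0121) and Ndufab1 (adjusted p = 0.0399) in MMP9-/- mice, whereas Ndufa4l2 did not pass in MMP9-/- mice (0.50, adjusted p = 0.206). Without MMP9-/- growth plate replicate 7, the low Col2a1 library of that group, 17 members passed (all genes 27%), but Atp5a1 (adjusted p = 0.0735) and Atp5f1 (adjusted p = 0.0907) did not. The other 13 calls held in that fit, with values of 1.10 for Ndufa4l2, -1.19 for Cox6b2, -1.58 for Cox7a1, 0.78 for Ndufaf2 and 0.89 for Atp5g2. In the same fit 14 of 15 red blood cell precursor, 16 of 18 neutrophil and 11 of 16 cell division genes were lower.

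Genes around the respiratory chain were read beside the members. Of the tricarboxylic acid cycle list of 18 genes, 10 of 17 tested were lower in growth plate over calvaria in MMPdKO and 5 of 18 in MMP9-/- mice, and none in MMP2-/- and WT mice. They included Sucla2, a subunit of succinyl-CoA synthetase (-1.26 in MMPdKO and -0.96 in MMP9-/- mice), and Idh3a, a subunit of the NAD-dependent isocitrate dehydrogenase (-0.78 in MMPdKO mice). The glycolysis and hypoxia response list was higher in 8 of 21 and 9 of 22 genes, with 1 lower in each. Of the mitochondrial ribosomal protein genes, 6 of 71 were higher and 1 lower in MMPdKO, and 5 of 70 higher and none lower in MMP9-/- mice. Of the assembly factors that the name rule did not reach, 1 of 27 was higher and 3 lower in MMPdKO, and 1 of 28 higher and 2 lower in MMP9-/- mice. Of the fatty acid oxidation list, 1 of 14 was higher and 3 lower in MMPdKO, and 1 higher and 2 lower in MMP9-/- mice. Of the regulators of mitochondrial biogenesis, 1 of 11 passed in each genotype, Ppargc1b as higher in MMPdKO (0.91) and Gabpa as lower in MMP9-/- mice (-0.48). Of the list of electron carriers and other partners of the chain, 1 of 24 was higher and 5 lower in growth plate over calvaria in MMPdKO, 1 higher and 2 lower in MMP9-/-, none in MMP2-/- and 2 higher in WT mice. In cortical bone over calvaria 1 was lower in MMPdKO, 1 higher and 1 lower in MMP9-/-, 2 lower in MMP2-/- and 2 higher and 2 lower in WT mice. Among them Slc25a4, the muscle form of the ADP/ATP carrier, was lower in cortical bone over calvaria in MMPdKO (-1.18), MMP9-/- (-1.15), MMP2-/- (-1.40) and WT mice (-1.15), beside the muscle list. Slc25a5, the form of that carrier in most tissues, was higher there in MMP9-/- (0.47, adjusted p = 0.0452) and WT mice (0.68, adjusted p = 0.00107). Higd1a, a hypoxia-induced protein of the inner membrane, was higher in growth plate over calvaria in MMP9-/- (0.99, adjusted p = 0.00255) and WT mice (0.79, adjusted p = 0.0423).

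The remaining tissue calls were few. In MMPdKO growth plate over cortical bone, mt-Nd1 was higher (0.71, SE 0.23, adjusted p = 0.0403) and Atp5f1 lower (-0.59, adjusted p = 0.0405), and these calls were lost in 10 and 9 of 13 fits that left out 1 library (adjusted p of up to 0.0994 and 0.115). With the mouse as a block the adjusted p of mt-Nd1 was 0.135. In MMP9-/- cortical bone over calvaria, Ndufb9 (-0.46, adjusted p = 0.0224), Cox5a (-0.45, adjusted p = 0.0349) and Ndufs7 (-0.40, adjusted p = 0.0416) were lower, and none of these 3 passed with the muscle covariate (adjusted p = 0.83, 0.568 and 0.872). Sdhaf2, an assembly factor that attaches the flavin to Sdha, had 41.1, 52.5 and 55.8 CPM in WT growth plate, against 60.1, 67.2 and 97.1 CPM in WT cortical bone (-0.48, SE 0.13, adjusted p = 0.0472), without overlap, as for 0.456% of all genes tested. WT cortical bone was in turn higher than WT calvaria, which had 41.6, 51.7 and 61.0 CPM (0.43, SE 0.13, adjusted p = 0.05, just under the threshold before rounding). These calls were lost in 10 and 12 of 14 fits that left out 1 library (adjusted p of up to 0.117 and 0.114), and with the mouse as a block (0.169 and 0.155). DESeq2 called neither (0.062 and 0.105), and the growth plate call was lost without the 3 WT libraries of low Col2a1 (0.137).

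The second question was what the deletions changed within a tissue. Of the members tested, 1 of 96 passed in MMPdKO over WT growth plate (all genes 6.60%), and none in the other 8 comparisons with WT. The 1 call became 0 without any 1 of 9 libraries (WT growth plate replicates 1, 3, 4, 5, 6 and 7 and MMPdKO growth plate replicates 3, 6 and 7) and 3 without MMPdKO growth plate replicate 1. It was also 3 without the low Col2a1 libraries (all genes 8%), with Atp5f1 and Ndufb5 beside Cox6b2. In growth plate, none of 96 passed in MMP9-/- (all genes 0.258%) or MMP2-/- mice (0.0382%), where 1 and 1 member had an unadjusted p under 0.05. In cortical bone none of 93 passed in MMPdKO (0.0314%), MMP9-/- (0.0105%) or MMP2-/- mice (0.0419%), with 0, 3 and 1 at an unadjusted p under 0.05. In calvaria none of 98 passed in MMPdKO (0.0657%), MMP9-/- (0.0188%) or MMP2-/- mice (0.216%), with 6, 2 and 1. The shares of all genes at the unadjusted threshold are not given for these comparisons. DESeq2 also gave 0 members in these 8 comparisons. In simulated counts with the sizes of the MMPdKO and WT growth plate groups, 13.4% of genes changed 1.5-fold were recovered. The shares were 50.7% for 2-fold and 83.3% for 4-fold changes. The changed genes were drawn from all genes above a low mean count, and small changes were often missed among them. These shares are not those of the members, whose median SE in MMPdKO over WT growth plate was 0.15. How often a change in the members would be found was not simulated.

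The member that passed was Cox6b2 (chromosome 7, 4751792 to 4753094, minus strand), the testis-type isoform of a subunit that links the complex IV monomers. It had 4.48, 12.9 and 23.6 CPM in the lowest, median and highest MMPdKO growth plate library, against 17.1, 38.9 and 45.6 CPM in WT growth plate (log2 fold change -1.36, SE 0.43, adjusted p = 0.0498). The ranges overlapped, as the lowest WT library lay below the highest MMPdKO libraries. In MMP9-/- growth plate it had 11.1, 13.5 and 47.7 CPM, and in MMP2-/- growth plate 6.64, 26.8 and 47.9 CPM. The call was lost in 10 of 14 fits that left out 1 library (adjusted p over the fits between 0.0334 and 0.106) and with the muscle covariate (0.0604). Without the 3 WT libraries of low Col2a1, it was -1.44 (adjusted p = 0.0432). In the same comparison 14 of 16 cell division genes (median log2 fold change -1.03), 11 of 15 red blood cell precursor genes (-1.19) and 6 of 19 neutrophil genes (-1.15) were lower, and 3 of 18 chondrocyte genes were higher (0.75). These counts were 15, 11, 6 and 1 without the low Col2a1 libraries. The part of these cells in the Cox6b2 difference was not tested. Cox6b2 was also lower in MMPdKO growth plate than in MMPdKO calvaria (21.7, 35.1 and 46.3 CPM), with -1.36 on the log2 scale (SE 0.31, adjusted p = 0.00159). Over MMPdKO cortical bone (18.6, 33.6 and 51.8 CPM) it was -1.28 (SE 0.33, adjusted p = 0.012), which was lost without cortical replicate 2 (0.0576) and with the mouse as a block (0.0734). In MMP9-/- growth plate over MMP9-/- calvaria (29.3, 50.2 and 75.9 CPM) it was -1.26 (SE 0.33, adjusted p = 0.00475). The 3 MMPdKO comparisons share the MMPdKO growth plate libraries, in which 3 of the 7 values were under 10 CPM.

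**Figure D5:**
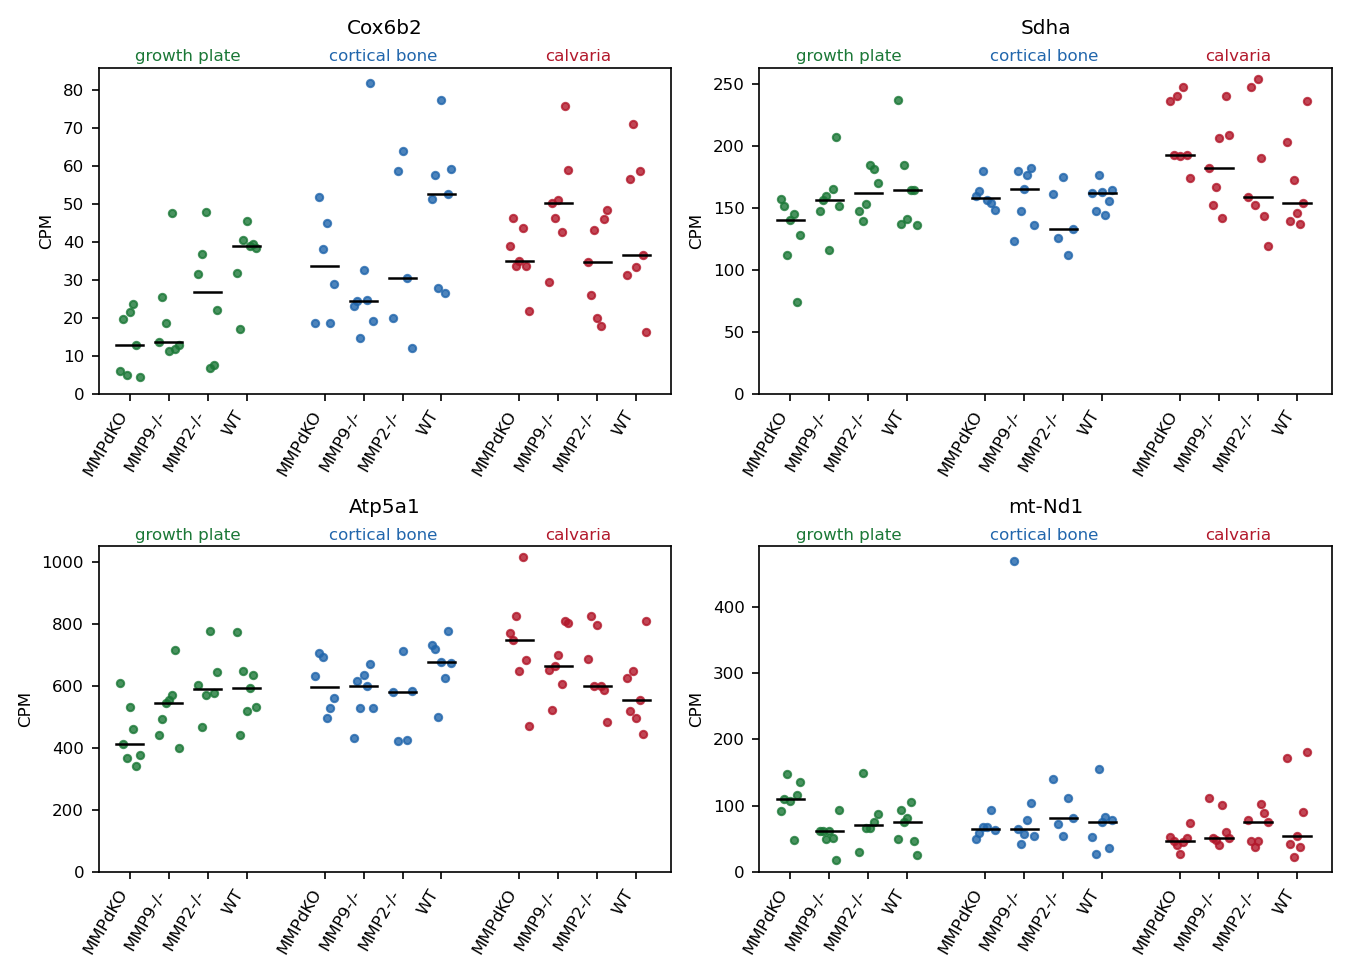
CPM of Cox6b2, Sdha, Atp5a1 and mt-Nd1 in each library (points) with the group median (bars), by tissue and genotype. In MMPdKO mice the growth plate libraries of Sdha (74.1 to 157 CPM) lie below those of calvaria (174 to 247 CPM). Growth plate and calvaria of MMPdKO mice overlap for Cox6b2, Atp5a1 and mt-Nd1, and mt-Nd1 has the higher median in growth plate. In WT mice growth plate and calvaria overlap for all 4 genes.

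Whether the tissue differences changed with genotype was tested as an interaction over 98 members. No member passed in any of the 9 contrasts of a knockout with WT (edgeR), and the share of all genes that passed was 0.539% for the MMPdKO effect in growth plate minus calvaria, 0.0265% for the MMP9-/- effect there and 0% for the other 7. At an unadjusted p under 0.05 there were 18 members for the MMPdKO effect in growth plate minus calvaria, and 1 to 6 for each of the others. The share of all genes at that unadjusted threshold is not given here, so these counts are not read as particular to the members. DESeq2, which gave an adjusted p for 78 members there, called 5 in that contrast (6.93% of the 4731 genes with an adjusted p) and none in the others: Atp5a1 (-0.71 by edgeR, SE 0.20, adjusted p = 0.0581 by edgeR and 0.0204 by DESeq2), Atp5f1 (-0.85, 0.062 and 0.022), Atp5g3 (-0.66, 0.0682 and 0.0219), Sdha (-0.63, 0.0846 and 0.0399) and Cox5a (-0.69, 0.0923 and 0.0426). Without the low Col2a1 libraries, edgeR called Atp5a1 and Atp5f1 in that contrast (all genes 0.983%) and no member in the other 5 that involve growth plate. With all libraries, the larger number of member calls in MMPdKO than in WT mice was thus not shown by edgeR to be a difference between the genotypes for any single member.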

How the data were processed

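Per the labels, RNA of each tissue (30 ng of RNA for a library) was sequenced by bulk MARS-seq, whereas the study's methods name INCPM-mRNA-seq, derived from Transeq, for cortical bone and calvaria. The submitters' processing notes name bcl2fastq 2.20.0.422, cutadapt, STAR 2.7.3a, HTSeq, DESeq2 1.26.0 and the genome build GRCm38. The deposited values were whole-number counts per gene, taken as raw counts by the authors. Whether unique molecular identifiers were collapsed, and the strand setting, are not given in the sources used here.

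From these counts, edgeR 4.0.16 (R 4.3.3, limma 3.58.1) fitted TMM-normalized quasi-likelihood models, 1 fit for each genotype for the tissue comparisons and 1 fit for each tissue for the genotype comparisons, over genes that reached 15 counts in any library of the fit. P-values were adjusted over all genes tested by Benjamini-Hochberg, and adjusted p under 0.05 is called passing. 3 members never reached 15 counts. CPM are counts scaled by the library total after TMM adjustment over all 80 libraries, and shares in percent use the unadjusted total. The interaction was fitted over all 80 libraries. DESeq2 1.42.0, RLE size factors, 2 other count minimums, 2-group fits, normalization without haemoglobin and muscle or without mt- genes, a muscle covariate, a block and each library left out were alternatives. Leaving out growth plate libraries of low Col2a1 was chosen after seeing the data. The scripts were tested on simulated data.

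The named members were the isoform pairs, Sdha to Sdhd and the mt- genes, and for each comparison up to 10 members in each direction by adjusted p. The members and gene lists were chosen with earlier results of these data known. Tissues of 1 mouse are paired by the animal in the labels: over 64 such pairs the correlation of deviations from the group means averaged 0.0319 (-0.47 to 0.469), against -0.00498 for other pairs. In genotype comparisons the replicates are separate mice. Library totals of 114408 to 1921698 counts limit the precision, and 95% intervals cover counting error only. Of the members, 15 are overlapped by another annotated gene on the same strand and 49 on either strand, so their counts may be shared.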

Additional observations from a re-analysis of the deposited data

Results flagged for a closer look

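Of 84 tests for a library far from the rest of its group (7 measures in 12 groups), 12 stood out, and chance alone gives about 1 in 20. Several of the 12 fall on the same library, so they are not independent and their number was not tested against chance. The share of the nuclear members was 2.48% (95% Wilson interval 2.45% to 2.51%) in growth plate WT replicate 1, against 1.93% to 2.14% in the other WT growth plates, and 2.43% (2.39% to 2.46%) in cortical WT replicate 4, against 1.94% to 2.13%. The share of the mitochondrial members was 0.0343% (0.0318% to 0.037%) in calvaria MMPdKO replicate 4, against 0.0451% to 0.0523% in the others of its group. In cortical MMP9-/- replicate 1, the library with the fewest counts (114408), it was 0.205% (0.18% to 0.232%), against 0.0374% to 0.0728%.

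In cortical WT replicate 5, Cox4i2 stood at 30.2 CPM, against 3.13 to 13.0 CPM in the other WT cortical libraries, and Ndufa4l2 at 60.3 CPM, against 8.34 to 29.7 CPM. Col2a1 in that library was 6651 CPM, the highest of cortical bone. Cox7a1 and Cox8b stood at 151 and 127 CPM in cortical WT replicate 4, against 0.98 to 39.0 CPM for each gene in the others of that group, and at 162 and 150 CPM in cortical MMP9-/- replicate 6, against 6.52 to 30.7 CPM and 6.47 to 20.4 CPM. These 2 libraries had 2.17% and 3.28% of their counts in the muscle list. Cox6b2 stood at 47.7 CPM in growth plate MMP9-/- replicate 5, against 11.1 to 25.5 CPM in the others of its group, and at 82.1 CPM in cortical MMP9-/- replicate 6, against 14.6 to 32.6 CPM, and both libraries came from the same mouse.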

How the results depend on the processing

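Of the 63 member calls named, 62 kept direction and threshold with RLE size factors, with a count minimum in 5 libraries, and without haemoglobin and muscle or mt- genes in the normalization, 59 with DESeq2, 55 with no count minimum, 54 in 2-group fits and 28 with the muscle covariate, where 33 lost the threshold. In that fit Cox8b in MMPdKO mice reversed, in growth plate over calvaria (0.22, adjusted p = 0.504) and cortical bone over calvaria (0.29, adjusted p = 0.978). With the muscle covariate, members called in MMP2-/- mice numbered 1 (growth plate over cortical bone, all genes 1.1%), 0 (growth plate over calvaria, 3.56%) and 0 (cortical bone over calvaria, 0.76%). In MMP9-/- mice they numbered 4 (12.3%), 5 (18%) and 1 (0.998%) in the same order. There were 0 in MMPdKO cortical bone over calvaria (0.739%) and in MMPdKO over WT growth plate (5.27%). With the mouse as a block, 49 of 62 calls kept the threshold, and the counts were 0 in WT growth plate over cortical bone, WT cortical bone over calvaria and MMP2-/- cortical bone over calvaria. The title numbers of different mice mark no shared animal (mean correlation -0.0302 over 59 pairs), and blocking on them gave 0 members in MMPdKO over WT growth plate. DESeq2 gave 2 of 97 members in WT (all genes 5.61%) and 2 of 95 in MMP2-/- growth plate over calvaria (4.7%). It gave 10 of 95 in MMP9-/- cortical bone over calvaria (8.19%), where the members' share was above that of all genes, and 5 in the interaction (6.93% in that contrast). In WT cortical bone over calvaria 1 member was called with RLE size factors, with no count minimum, with the minimum in 5 libraries, without haemoglobin and muscle genes, without mt- genes and in the 2-group fit. 2-group fits gave 0 and 2 members in MMP2-/- growth plate over cortical bone and over calvaria. The minimum in 5 libraries gave 8 in MMPdKO growth plate over cortical bone, and no minimum gave 0 in MMPdKO over WT growth plate. Without the low Col2a1 libraries there were 2 members in MMP2-/- growth plate over calvaria (adding Sdhc, all genes 3.12%). There were 3 in MMPdKO over WT growth plate (adding Atp5f1 and Ndufb5, all genes 8%) and 2 in the interaction (all genes 0.983% in that contrast). The shares of all genes under the other alternatives are not given here. The causes were not tested.

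With 1 library left out, 679 of 864 fits of the named calls kept the threshold. The counts ran over 2 to 5 (MMPdKO), 2 to 14 (MMP9-/-), 0 to 3 (MMP2-/-) and 0 to 5 (WT) in cortical bone over calvaria, over 2 to 7, 2 to 4, 0 to 2 and 2 to 4 in growth plate over cortical bone, and over 15 to 30, 10 to 17, 0 to 3 and 1 to 2 in growth plate over calvaria. They ran over 0 to 3 in MMPdKO over WT growth plate and stayed at 0 in the other 8 comparisons with WT. These counts are given without the shares of all genes in the same fits, and are not compared with them. The level medians changed by less than the spread between libraries after TMM scaling (2.15%, 2.12% and 2.31% in growth plate, cortical bone and calvaria). The libraries held 114408 to 1921698 counts, and 3 members that never reached 15 counts in a library could not be tested.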
